A study of Danio rerio with 24 samples.

Results

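The genes described here are the mitochondrial carriers and the mitochondrial protein import genes of the zebrafish embryo. They were taken by name. A carrier was any gene identifier whose symbol begins with slc25a, and an import gene any whose symbol begins with timm or tomm, provided that its mean over 24 libraries was at least 5 CPM, the gene's counts scaled to a common library total. Of 32520 identifiers, 85 carried such a name, 59 as carriers and 26 as import genes. The minimum left 56 members, 34 carriers and 22 import genes, and set aside the other 29. The lowest members were 1 of the SLC25A15 copies (ENSDARG00000062271) at 5.35 CPM and slc25a23a at 6.35 CPM. The highest identifiers under the minimum were slc25a51a at 4.06 CPM and TIMM8A at 4.01 CPM. Each of the 56 members also passed the filter on low counts and was among the 11238 genes tested. Symbols are given as the symbol table spells them, which is often in the human style, and an identifier is added where copies share a symbol.

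RNA had been taken from whole wild-type embryos of the TLAB strain. The 6 groups, each of 4 libraries, were embryos with oligomycin, embryos with actinomycin D and untreated embryos at 4 hours post fertilization (hpf), and the same 3 kinds at 3 hpf. All were kept in E3 medium with methylene blue. Oligomycin, which inhibits the mitochondrial ATP synthase, was used at 1 µM, and actinomycin D, which blocks transcription, at 10 µg/ml. The protocol places both inhibitors in the medium, whereas the design text speaks of injection for actinomycin D, so the route is unsettled. The design asks whether embryos treated with oligomycin switch on their own genes, with untreated and actinomycin D embryos as controls. The number of embryos per library and the clutch each came from are not given, so p-values measure only the spread between these libraries. A solvent-only group was not analysed here.

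Total counts per library ran from 1453642 to 3431533, with a median of 2675171. Summed over 6 maternal marker genes, levels lay between 5018 and 6326 CPM in the 24 libraries. Single markers moved in opposite directions within that sum. In untreated embryos at 4 against 3 hpf, 2 of the 6 were higher and 2 lower at an adjusted p under 0.05 by edgeR. The same counts held for oligomycin against untreated embryos at 4 hpf. Summed over 6 genes of early zygotic transcription, levels were 294 to 705 CPM in oligomycin, 0.928 to 27.7 CPM in actinomycin D and 541 to 992 CPM in untreated embryos at 4 hpf. Among the actinomycin D libraries at 4 hpf, replicate 4 was the one at 27.7 CPM, and the other 3 lay at or under 1.04 CPM. Leaving replicate 4 out moved none of the 20 counts of called members below by more than 1.5 times. The 6 markers of later tissues summed to at most 3.14 CPM in any library, and 3 to 5 of the 6 were at 0 throughout a group. Levels are CPM after scaling of the libraries by edgeR's TMM method, so each is a share of the library's counts. In whole embryos, fewer cells of a kind and less RNA per cell cannot be told apart.

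Mitochondria are bounded by an outer and an inner membrane, and nearly all of their proteins are made in the cytosol. The SLC25 carriers are inner-membrane proteins that exchange nucleotides, phosphate, amino acids, organic acids and cofactors between the matrix and the cytosol. The import machinery brings proteins in. The TOM complex of the outer membrane receives them, the TIM23 complex moves those with a presequence into the matrix, and small TIM chaperones of the intermembrane space guide hydrophobic proteins, the carriers among them, to the TIM22 complex. The cleavage-stage zebrafish embryo relies on RNA and mitochondria laid down in the egg, and its own genome is switched on around the times sampled here.

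Some of the names reach beyond these roles. SLC25A17 is a carrier of peroxisomes, SLC25A46 is an outer-membrane protein of mitochondrial dynamics, tomm34 is a cytosolic co-chaperone, and timmdc1 is an assembly factor of respiratory complex I. All 4 met the naming rule and were kept.

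Among carriers, the level was highest for SLC25A25, a calcium-regulated carrier of ATP-Mg and phosphate, at a mean of 899 CPM over the 24 libraries before TMM scaling. The phosphate carrier SLC25A3 averaged 435 CPM and the ADP/ATP carrier SLC25A5 377 CPM. These libraries count the 3′ end of each transcript, so levels of different genes were compared without a correction for length. SLC25A33, a pyrimidine nucleotide carrier, stood at 197 CPM, and slc25a24, another ATP-Mg and phosphate carrier, at 173 CPM. The branched-chain amino acid carrier SLC25A44 (ENSDARG00000035905), the coenzyme A carrier SLC25A42, the glycine carrier SLC25A38 (ENSDARG00000074533), the iron carrier SLC25A28 and the pyrimidine nucleotide carrier slc25a36b followed between 113 and 79.4 CPM.

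Several of these genes had relatives or copies under the minimum. The other ADP/ATP carriers, SLC25A4 and SLC25A6, averaged 0.459 and 0.512 CPM. A second SLC25A25 identifier averaged 1.32 CPM, and a second SLC25A3 identifier 0.0488 CPM. The aspartate and glutamate carrier SLC25A12 was a member, whereas its relative SLC25A13 averaged 0.0344 CPM. How reads shared by near-identical copies were assigned is not given, so the split between copies is uncertain.

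Import genes lay within a narrower span. The small chaperones TIMM10 and TIMM9 averaged 237 and 154 CPM, and timm23a, a core subunit of the TIM23 complex, averaged 179.7 CPM. In the outer membrane the channel protein TOMM40 stood at 145 CPM, and the receptors TOMM20, TOMM70 and tomm20a at 139, 133 and 114 CPM. The receptor TOMM22 averaged 59.3 CPM. Another small chaperone, timm10b, stood at 101 CPM, tomm34 at 98.0 CPM and timmdc1 at 62.7 CPM. The other TIM23 subunits TIMM44, TIMM50 and TIMM17A lay at 54.3, 50.8 and 37.3 CPM, and the lowest import member was tomm40l at 6.69 CPM. Identifiers for TIMM17B, timm23b and TIMM22 fell under the minimum at 0.484, 0.0537 and 0.125 CPM.

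**Figure D1:**
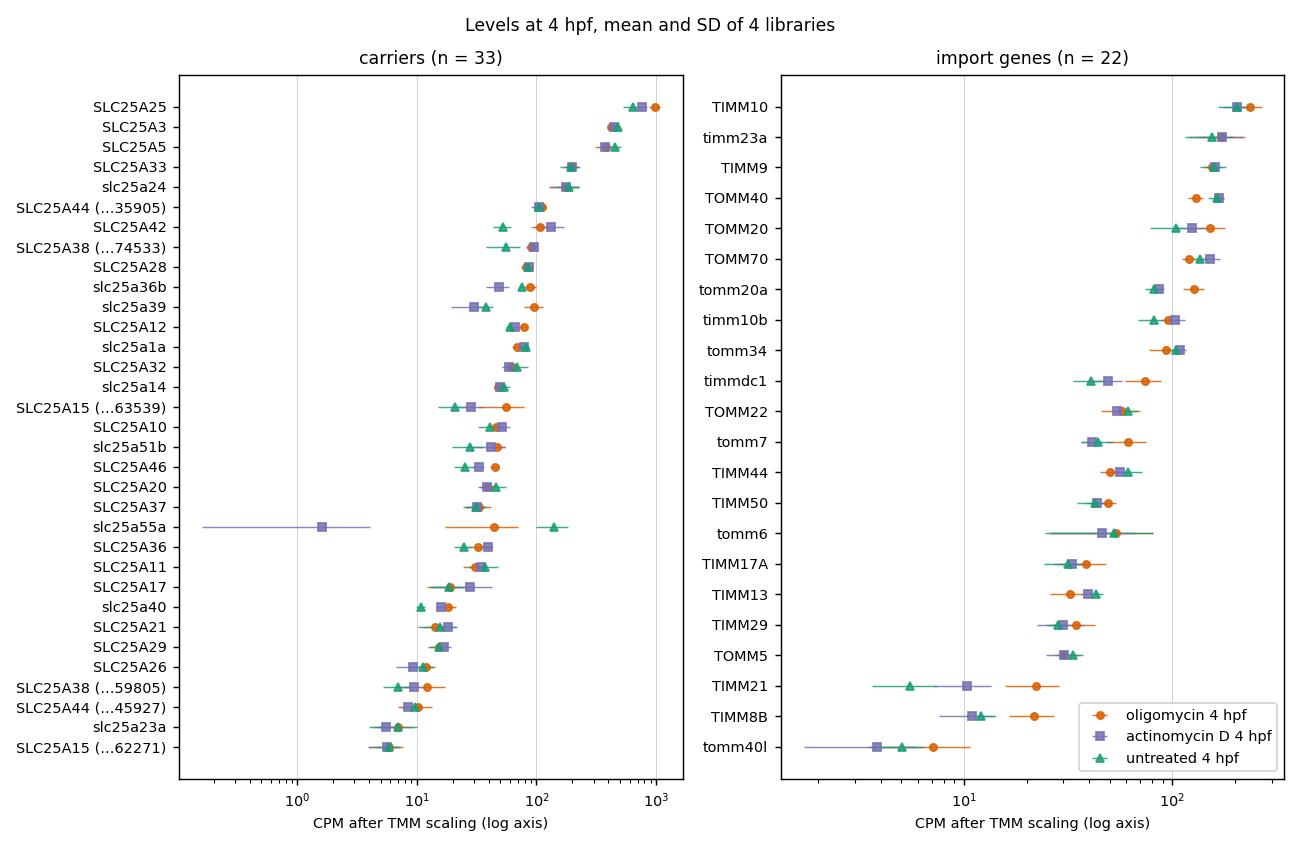
Level of 33 carriers and 22 import genes at 4 hpf in oligomycin, actinomycin D and untreated embryos, as mean and SD of 4 libraries in CPM after TMM scaling on a log axis, with members ordered by their mean over 24 libraries. Most members overlap between the 3 groups, slc25a39 and TIMM21 are highest in oligomycin, and slc25a55a runs between 1.6 CPM in actinomycin D and 141 CPM in untreated embryos; its lower bar in actinomycin D is shortened, since the SD exceeds the mean.

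Summed over the 34 carriers, levels at 4 hpf were 3510 ± 92.7 CPM in oligomycin, 3162 ± 151 CPM in actinomycin D and 3146 ± 143 CPM in untreated embryos (SD, n = 4 each). At 3 hpf the same sums were 3610 ± 243 CPM in oligomycin, 3465 ± 156 CPM in actinomycin D and 3471 ± 185 CPM in untreated embryos. The 4 oligomycin libraries at 4 hpf, between 3374 and 3574 CPM, lay above the 4 untreated ones, between 2994 and 3314 CPM. Most of that difference lay in 1 gene: SLC25A25 averaged 977 ± 100.4 CPM in oligomycin and 639 ± 107 CPM in untreated embryos, while slc25a55a went the other way with 43.8 ± 26.6 CPM in oligomycin and 141 ± 41.3 CPM in untreated embryos (SD, n = 4 each). For the 22 import genes the sums at 4 hpf were 1809 ± 85.3 CPM in oligomycin, 1725 ± 43.9 CPM in actinomycin D and 1650 ± 31.9 CPM in untreated embryos (SD, n = 4 each). Here too the oligomycin libraries, from 1694 CPM upward, were above the untreated ones, which reached 1688 CPM.

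The course without an inhibitor was read from untreated embryos at 4 against 3 hpf. At 4 hpf, 10 of the 34 carriers had fallen and 2 had risen relative to 3 hpf, and 8 of the 22 import genes had fallen and none had risen (edgeR's quasi-likelihood test, Benjamini-Hochberg adjusted p under 0.05 over 11238 genes). Of all genes tested 27.4% were called in this comparison, 12.8% higher and 14.6% lower. The share called lower was 29.4% among carriers and 36.4% among import genes, and no test of these shares against the background was made. The median log2 fold change was -0.04 over the carriers, -0.36 over the import genes and 0.00 over all genes. The 4 libraries at 4 hpf lay wholly above the 4 at 3 hpf in 3 carriers and wholly below them in 8, and wholly below in 7 import genes, where 26.4% of all genes were apart in either direction.

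The smallest p-values belonged to TIMM21, a TIM23 subunit, and slc25a39, a carrier of glutathione, and both fell. TIMM21 had 3.89, 8.15, 5.52 and 4.45 CPM at 4 hpf, against 14.4, 25.3, 18 and 27.1 CPM at 3 hpf. The levels at 4 hpf rest on 9, 13, 15 and 13 counts. Every library at 4 hpf lay below every one at 3 hpf, and the level was 3.96-fold lower (log2 fold change -1.99, SE 0.30, adjusted p = 4.12e-05 by edgeR). For slc25a39 the levels were 36.3, 31.4, 43.8 and 39.7 CPM at 4 hpf and 78.7, 67.2, 104 and 102 CPM at 3 hpf, again without overlap. Its log2 fold change was -1.21 (SE 0.20, adjusted p = 9.56e-05 by edgeR). The related slc25a40, which also carries glutathione, fell with -0.92 (adjusted p = 0.00397 by edgeR), while the iron carriers SLC25A28 and SLC25A37 had 0.12 and -0.29 and were not called.

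Of the 14 carriers of nucleotides, phosphate and cofactors, 4 fell and 1 rose, beside 14.6% of all genes lower and 12.8% higher. Counts by role here and below were not tested against the shares over all genes. SLC25A25 had 526, 575, 759 and 694 CPM at 4 hpf, against 1042, 887, 1110 and 949 CPM at 3 hpf, with no overlap (log2 fold change -0.64, SE 0.12, adjusted p = 0.000408 by edgeR). For SLC25A42, which brings coenzyme A into the matrix, the values were 44.5, 53.3, 46.4 and 64.0 CPM at 4 hpf and 92.3, 105, 81.3 and 134 CPM at 3 hpf. It fell 1.98-fold (log2 fold change -0.99, SE 0.21, adjusted p = 0.00112 by edgeR), with the groups apart. The NAD carrier slc25a51b fell with -0.79 (SE 0.22). The ADP/ATP carrier SLC25A5 was the exception: it had 451, 515, 462 and 402 CPM at 4 hpf, against 350.1, 364, 381 and 296 CPM at 3 hpf, all 4 higher. Its rise was small (log2 fold change 0.40, SE 0.14, adjusted p = 0.0358 by edgeR). SLC25A3, by contrast, had 477 ± 13.8 CPM at 4 hpf and 434 ± 35.4 CPM at 3 hpf (SD, n = 4 each), with a log2 fold change of 0.14 that was not called.

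Among the 8 amino acid carriers 3 fell, beside 14.6% of all genes. SLC25A38 (ENSDARG00000074533), which supplies glycine for heme, had 44.9, 44.5, 50.4 and 81.5 CPM at 4 hpf, against 77.9, 87.0, 96.8 and 124 CPM at 3 hpf. Replicate 4 at 4 hpf overlapped the 3 hpf libraries, and the log2 fold change was -0.79 (SE 0.17, adjusted p = 0.00105 by edgeR). SLC25A12 fell with -0.44 (SE 0.12). The ornithine carrier SLC25A15 (ENSDARG00000063539), named after its values were seen, fell with -1.4 (SE 0.45). None of the 5 carriers of organic acids and acylcarnitine was called, where 27.4% of all genes were. Their log2 fold changes ran from -0.08 to 0.34. SLC25A46 had 22.5, 20.1, 29.4 and 28.8 CPM at 4 hpf, against 42.4, 36.4, 50.7 and 47.0 CPM at 3 hpf, with no overlap (log2 fold change -0.80, SE 0.14, adjusted p = 0.000226 by edgeR).

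In the TOM complex 3 of 9 members fell, beside 14.6% of all genes. The receptor tomm20a had 79.9, 72.7, 92.3 and 81.8 CPM at 4 hpf and 111, 105, 142 and 118 CPM at 3 hpf, and its copy TOMM20 had 124, 79.6, 127 and 83.9 CPM at 4 hpf and 175, 135, 171 and 142 CPM at 3 hpf. Neither gene's groups overlapped, and the log2 fold changes were -0.54 for tomm20a and -0.59 for TOMM20 (SE 0.12 and 0.17, adjusted p = 0.00186 and 0.0103 by edgeR). The small subunit tomm7 fell with -0.51, whereas TOMM22, TOMM40 and TOMM70 had 0.17, 0.18 and 0.07 and were not called. Within the 5 TIM23 members TIMM21 alone was called, where 27.4% of all genes were. For the others, timm23a had -0.39, TIMM17A -0.28, TIMM44 0.19 and TIMM50 -0.44. Of the 5 small chaperones, TIMM8B fell with -0.66, timm10b with -0.46 and TIMM10 with -0.34, while TIMM9 had 0.00 and TIMM13 0.28. The complex I assembly factor timmdc1 fell with -0.67 (SE 0.18, adjusted p = 0.00610 by edgeR). Among the called genes named here slc25a40, SLC25A38 (ENSDARG00000074533), timm10b and TIMM10 had libraries that overlapped between the times.

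By their numbers the libraries fall into 2 series, each with 2 libraries of every group, and what a series marks is not given. Within the first and the second of them, the log2 fold changes at 4 against 3 hpf in untreated embryos were -1.77 and -2.21 for TIMM21, -1.11 and -1.34 for slc25a39, and -1.02 and -1.0 for SLC25A42. With so few libraries 2 import genes were called in the first and 5 in the other. SLC25A5 lost its call without any 1 of 8 libraries (untreated 4 hpf replicates 1, 2 and 3, untreated 3 hpf replicates 1, 2 and 4, actinomycin D 4 hpf replicates 1 and 2; adjusted p up to 0.175 by edgeR), and its log2 fold change stayed between 0.30 and 0.45. TIMM10 lost its call without untreated 4 hpf replicate 1, 3 or 4, untreated 3 hpf replicate 2, 3 or 4 or actinomycin D 3 hpf replicate 4 (adjusted p up to 0.134 by edgeR). The call of tomm7 was lost without untreated 4 hpf replicate 1 or 3 or untreated 3 hpf replicate 1, 3 or 4, and that of TIMM8B without untreated 4 hpf replicate 1, 2 or 3 or untreated 3 hpf replicate 1 or 3 (adjusted p up to 0.134 and 0.0761 by edgeR). Without untreated 4 hpf replicate 1 or untreated 3 hpf replicate 3, 5 import genes were called. These fits were unpaired, although libraries with the same replicate number met the rule for pairing given under processing. With that number as a block no named gene lost its call.

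**Figure D2:**
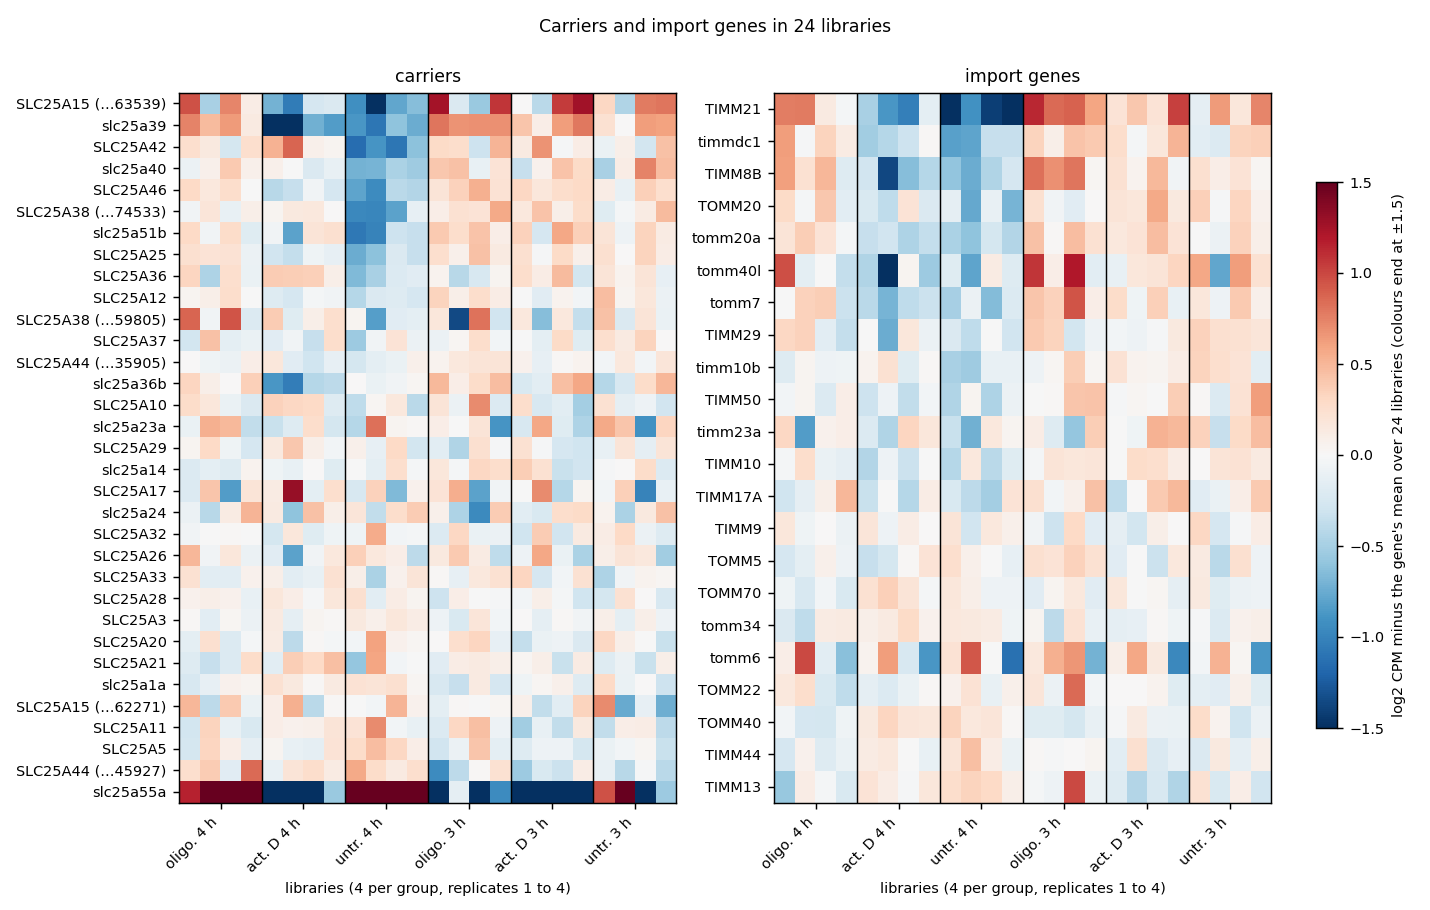
Level of 33 carriers and 22 import genes in each library as log2 CPM minus the gene's mean over 24 libraries, with colours ending at 1.5 in either direction, and members ordered by the change between 4 and 3 hpf in untreated embryos. The upper rows of both panels, from slc25a39 and TIMM21 down, are mostly blue in the 4 untreated libraries at 4 hpf and mostly pale or red in the oligomycin libraries at 4 hpf.

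At 4 hpf, 9 carriers made up a higher share of the counts in oligomycin than in untreated embryos, and none a lower share, among those called. Among import genes 5 were higher and 1 was lower. Over all genes tested 21.4% were called in this comparison, 12.3% higher and 9.05% lower by edgeR, against 26.5% of carriers higher and 22.7% of import genes higher; these shares were not tested against the background. The median log2 fold change was 0.08 over the carriers, 0.21 over the import genes and -0.04 over all genes. All 4 oligomycin libraries were above all 4 untreated ones in 9 carriers and 4 import genes, and below them in 2 carriers and 1 import gene, where 22.5% of all genes were apart in either direction. This comparison and the one above share the 4 untreated libraries at 4 hpf, so a gene low in those libraries moves in both.

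TIMM21 had 27.7, 27.9, 17.6 and 15.6 CPM in oligomycin, against 3.89, 8.15, 5.52 and 4.45 CPM in untreated embryos. Those untreated libraries held 9, 13, 15 and 13 counts of it, so the size of the fold depends on few reads. Every oligomycin library lay above every untreated one, and the difference was 4.09-fold (log2 fold change 2.03, SE 0.30, adjusted p = 6.34e-05 by edgeR). For slc25a39 the levels were 113, 93.4, 105 and 73.9 CPM in oligomycin and 36.3, 31.4, 43.8 and 39.7 CPM in untreated embryos, a 2.53-fold difference without overlap (log2 fold change 1.34, SE 0.20, adjusted p = 7.11e-05 by edgeR). The other glutathione carrier, slc25a40, had 15.6, 17.7, 22.2 and 17.7 CPM in oligomycin and 9.93, 10.0, 11.8 and 11.3 CPM in untreated embryos. Its groups were apart as well (log2 fold change 0.76, SE 0.23).

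SLC25A42 had 118, 109.5, 82.2 and 118 CPM in oligomycin, against 44.5, 53.3, 46.4 and 64.0 CPM in untreated embryos (log2 fold change 1.04, SE 0.21, adjusted p = 0.00116 by edgeR). For SLC25A25 the oligomycin libraries gave 1038, 1018, 1025 and 827 CPM and the untreated ones 526, 575, 759 and 694 CPM. In both genes all 4 oligomycin libraries were above all 4 untreated ones; for SLC25A25 the log2 fold change was 0.61 (SE 0.12, adjusted p = 0.00102 by edgeR). The NAD carrier slc25a51b was higher with 0.74 (SE 0.22). The 2 most abundant carriers after SLC25A25 were not called: SLC25A3 had 422 ± 26.0 CPM in oligomycin and 477 ± 13.8 CPM in untreated embryos, and SLC25A5 had 381 ± 69.3 CPM in oligomycin and 458 ± 46.6 CPM in untreated embryos (SD, n = 4 each). For SLC25A3 all 4 oligomycin libraries lay below all 4 untreated ones, whereas for SLC25A5 the groups overlapped.

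Of the amino acid carriers, SLC25A38 (ENSDARG00000074533) was higher with 0.69 (SE 0.17), SLC25A12 with 0.38 (SE 0.12) and SLC25A15 (ENSDARG00000063539) with 1.39 (SE 0.45). SLC25A46 had 48.5, 44, 47.3 and 39.3 CPM in oligomycin, against 22.5, 20.1, 29.4 and 28.8 CPM in untreated embryos. It was 1.76-fold higher with no overlap (log2 fold change 0.81, SE 0.14, adjusted p = 0.000334 by edgeR). No carrier of organic acids or acylcarnitine was called, where 21.4% of all genes were. Their log2 fold changes ran from -0.28 to 0.17.

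Both TOMM20 copies were higher. The level of tomm20a was 128, 143, 128 and 109 CPM in oligomycin, against 79.9, 72.7, 92.3 and 81.8 CPM in untreated embryos, with no overlap (log2 fold change 0.63, SE 0.12, adjusted p = 0.000759 by edgeR). TOMM20 had 167, 133, 181 and 122 CPM in oligomycin and 124, 79.6, 127 and 83.9 CPM in untreated embryos, where 1 oligomycin library fell inside the untreated range (log2 fold change 0.54, SE 0.17, adjusted p = 0.0228 by edgeR). The channel protein TOMM40 was the import gene that was lower, at 140, 121, 119.9 and 138 CPM in oligomycin, against 182, 161, 163 and 146 CPM in untreated embryos. Its groups did not overlap, but the difference was small (log2 fold change -0.33, SE 0.11, adjusted p = 0.0312 by edgeR). The receptors TOMM22 and TOMM70 had -0.10 and -0.17 and were not called. Oligomycin embryos also had more timmdc1 (73.7 ± 14.8 CPM, against 40.8 ± 7.54 CPM in untreated embryos; SD, n = 4 each) and more TIMM8B (21.7 ± 5.23 CPM, against 12.0 ± 1.86 CPM in untreated embryos). Their log2 fold changes were 0.84 and 0.83 (adjusted p = 0.00137 and 0.0119 by edgeR).

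**Figure D3:**
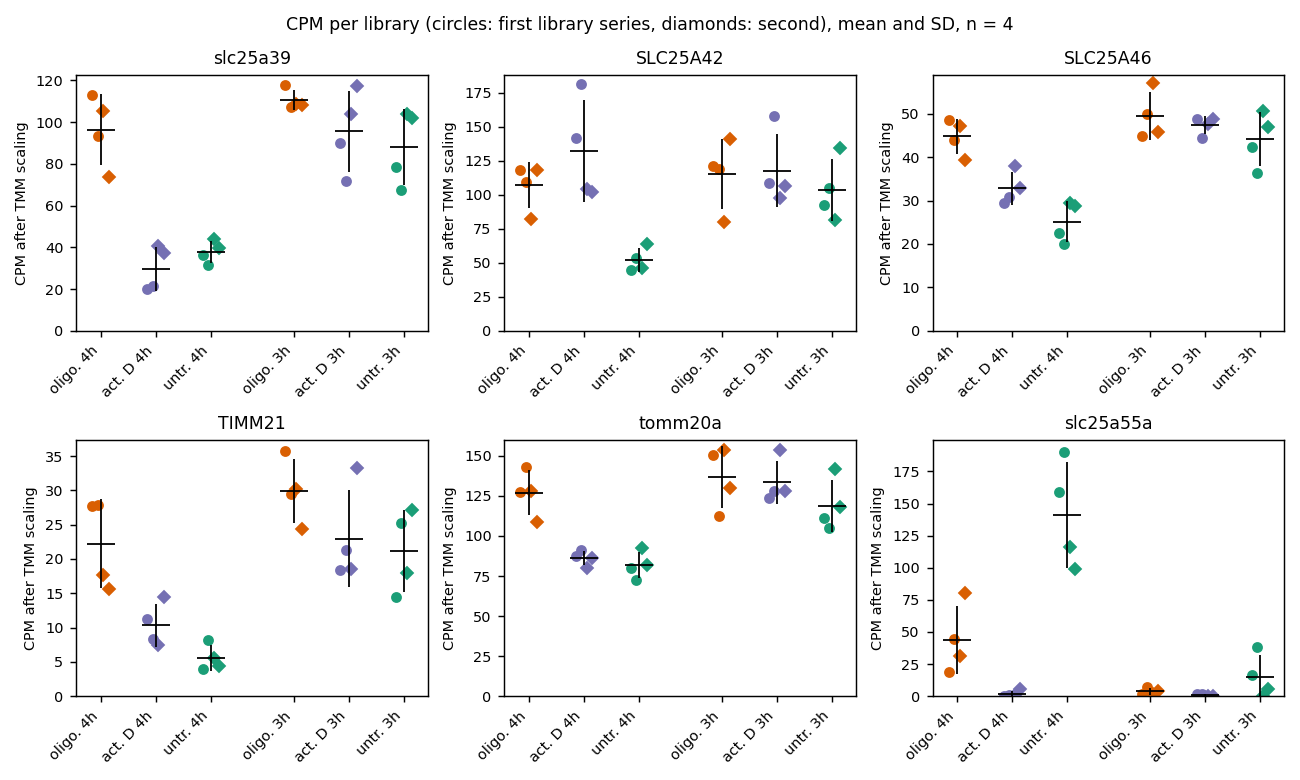
CPM after TMM scaling in each library for 6 members, in the groups at 4 hpf (left) and 3 hpf (right), with circles for the first library series, diamonds for the second, and the mean and SD of 4 libraries in black. For slc25a39, SLC25A46, TIMM21 and tomm20a the oligomycin libraries at 4 hpf stand above the actinomycin D and untreated libraries at 4 hpf, for SLC25A42 the untreated libraries at 4 hpf are the low ones, and slc25a55a is high in the untreated libraries at 4 hpf.

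Within the first and second library series the log2 fold changes of oligomycin against untreated at 4 hpf were 2.26 and 1.77 for TIMM21, 1.61 and 1.14 for slc25a39, 0.91 and 0.39 for SLC25A25, and 0.83 and 0.49 for tomm20a. In the second series alone 1 carrier and no import gene was called, and without oligomycin 4 hpf replicate 3 the count of carriers was 5. The call of TOMM40 was lost without any 1 of 9 libraries: untreated 4 hpf replicates 1, 2 and 3, oligomycin 4 hpf replicates 2 and 3, actinomycin D 4 hpf replicates 1 and 2, untreated 3 hpf replicate 2 and oligomycin 3 hpf replicate 3 (adjusted p up to 0.201 by edgeR). Without oligomycin 4 hpf replicate 3, slc25a40, SLC25A12, slc25a51b and TOMM20 lost theirs. Replicate 1 of the same group mattered to slc25a51b, TOMM20 and TIMM8B, untreated 4 hpf replicate 1 to SLC25A12 and slc25a51b, and untreated 4 hpf replicates 2 and 4 to TOMM20. Over these fits the adjusted p reached 0.0757 for slc25a40, 0.0853 for SLC25A12, 0.0596 for slc25a51b, 0.0938 for TOMM20 and 0.0550 for TIMM8B (edgeR).

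At 3 hpf, neither a carrier nor an import gene was called between oligomycin and untreated embryos by edgeR, nor was any other gene (0% of the 11238). At an unadjusted p under 0.05 there were 1 carrier and 2 import genes, beside 486 of all genes tested, and DESeq2 called no member. For slc25a39 the levels were 118, 107, 109 and 108 CPM in oligomycin and 78.7, 67.2, 104 and 102 CPM in untreated embryos, and for TIMM21 35.8, 29.5, 30.2 and 24.4 CPM in oligomycin and 14.4, 25.3, 18 and 27.1 CPM in untreated embryos. In slc25a39 the 4 oligomycin libraries were all above the untreated ones, as no other carrier was; 1.74% of all genes were apart in either direction, and its log2 fold change of 0.33 (SE 0.19) was not called. TIMM21 had 0.49 (SE 0.25) with overlapping groups.

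Oligomycin embryos at 4 hpf were also set against untreated embryos at 3 hpf. No carrier and no import gene was called by edgeR, where 0.116% of all genes were, 13 in number, all higher in oligomycin. At an unadjusted p under 0.05 there were 2 carriers and no import gene, beside 358 of the 11238 genes tested. DESeq2 called no member. Mean levels of slc25a39 were 96.3 ± 16.9 CPM in oligomycin at 4 hpf and 88.0 ± 18 CPM in untreated embryos at 3 hpf, and those of SLC25A42 were 107 ± 17.1 CPM in oligomycin at 4 hpf and 103 ± 22.8 CPM in untreated embryos at 3 hpf (SD, n = 4 each). For SLC25A25 they were 977 ± 100.4 CPM in oligomycin at 4 hpf and 997 ± 98.7 CPM in untreated embryos at 3 hpf, and for TIMM21 22.2 ± 6.5 CPM in oligomycin at 4 hpf and 21.2 ± 6.0 CPM in untreated embryos at 3 hpf (SD, n = 4 each). In these 4 genes the groups overlapped. Their log2 fold changes, 0.13, 0.05, -0.03 and 0.05, had SE of 0.19, 0.20, 0.12 and 0.26. The libraries were wholly apart in 0 carriers and 0 import genes, and the share of all genes apart is not given here. All 4 genes had been called in untreated embryos with time and in oligomycin against untreated embryos at 4 hpf. Those comparisons share libraries with this one.

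The change with time was then read inside each treatment. In oligomycin embryos 1 carrier, slc25a55a, was higher at 4 than at 3 hpf and no import gene was called by edgeR, beside 0.516% of all genes, 0.498% higher and 0.0178% lower. At an unadjusted p under 0.05 there were 2 import genes, beside 827 of the 11238 genes tested, and DESeq2 called no import gene. In actinomycin D embryos 3 carriers and 5 import genes were lower at 4 hpf and none was higher, beside 10.9% of all genes, 3.23% higher and 7.7% lower. The 4 actinomycin D libraries at 4 hpf lay wholly below those at 3 hpf in 4 carriers and 5 import genes, and wholly above them in 3 import genes, where 17.9% of all genes were apart. None of these libraries enters the untreated comparison. The sets that follow were picked by their call in untreated embryos, which by itself makes their untreated medians larger in size. The 10 carriers that fell in untreated embryos, by a median of -0.79 on the log2 scale, had a median of -0.15 in oligomycin embryos, where none was called, and -0.28 in actinomycin D embryos, where 2 were called lower. The 8 import genes that fell in untreated embryos, by a median of -0.56, had a median of -0.15 in oligomycin embryos with none called and -0.56 in actinomycin D embryos with 5 called lower. For comparison, the 1643 genes of any kind that fell in untreated embryos, by a median of -0.79, had medians of -0.15 in oligomycin and -0.46 in actinomycin D embryos, and 653 of them, 39.7%, were called lower in actinomycin D. In oligomycin embryos all 10 of these carriers, 7 of the 8 import genes and 1393 of the 1643 genes were fitted below 0. In actinomycin D embryos 9, 8 and 1425 of them were.

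**Figure D4:**
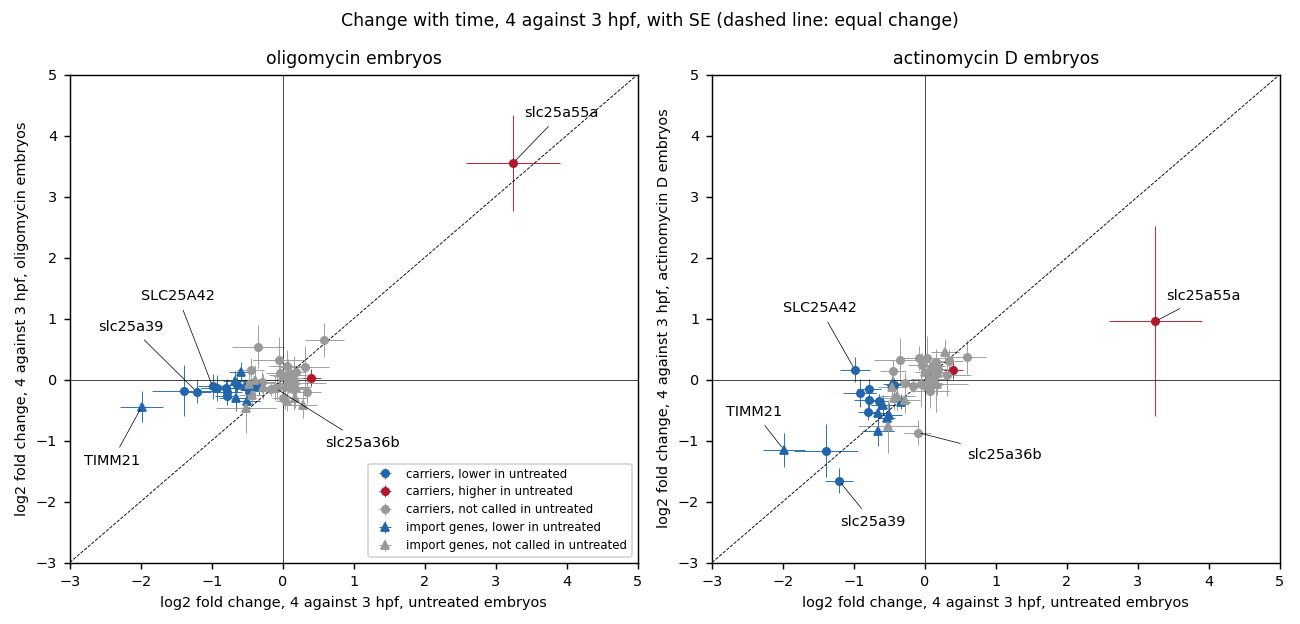
Log2 fold change at 4 against 3 hpf of 33 carriers and 22 import genes in oligomycin embryos (left, vertical axis) and actinomycin D embryos (right, vertical axis) plotted against that in untreated embryos (horizontal axes), with SE bars and colours for the call in untreated embryos. The blue members lie near 0 on the vertical axis in oligomycin embryos, most of them slightly below it. In actinomycin D embryos TIMM21 and slc25a39 lie well below 0 and SLC25A42 does not.

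The lower genes in actinomycin D embryos covered several roles. The glutathione carrier slc25a39 had 20.1, 21.4, 40.5 and 37.2 CPM at 4 hpf, against 89.8, 71.8, 104 and 117 CPM at 3 hpf, a 3.16-fold fall with no overlap (log2 fold change -1.66, SE 0.20, adjusted p = 6.16e-05 by edgeR). TIMM21 had 11.2, 8.34, 7.43 and 14.4 CPM at 4 hpf and 18.5, 21.4, 18.5 and 33.3 CPM at 3 hpf (log2 fold change -1.15, SE 0.27, adjusted p = 0.00843 by edgeR). The receptor tomm20a had 87.2, 91.2, 80.2 and 86.3 CPM at 4 hpf and 124, 128, 154 and 128 CPM at 3 hpf (log2 fold change -0.63, SE 0.12, adjusted p = 0.00196 by edgeR). In each of these genes the groups were apart. The pyrimidine nucleotide carrier slc25a36b fell as well, to 41.5, 37.0, 56.6 and 57.9 CPM at 4 hpf, against 65.3, 68.4, 105 and 115 CPM at 3 hpf (log2 fold change -0.87, SE 0.20); in untreated embryos it had -0.10 and was not called. SLC25A46, TIMM8B, tomm7 and timmdc1 fell with -0.52, -0.85, -0.57 and -0.54. SLC25A42, in contrast, had 0.16 (SE 0.20) and SLC25A38 (ENSDARG00000074533) -0.15 (SE 0.16), neither called; whether their change differs between actinomycin D and untreated embryos was not tested.

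Libraries of 1 set paired in this comparison, and with the set (4 in number, the replicate numbers here) as a block 5 carriers were called lower, SLC25A25 (-0.36, adjusted p = 0.0135 by edgeR) and SLC25A15 (ENSDARG00000063539; -1.15, adjusted p = 0.0186 by edgeR) being added. Among import genes 7 were then called, with TIMM10 (-0.37) and TOMM20 (-0.43) added. The share of all genes called in this block fit is not given here. Leaving out single libraries gave 2 to 5 carriers and 2 to 6 import genes. The carriers were 5 without actinomycin D 3 hpf replicate 2, and the import genes 3 or 2 without actinomycin D 4 hpf replicate 1 or 2, actinomycin D 3 hpf replicate 1, 3 or 4, or oligomycin 3 hpf replicate 1. TIMM21 lost its call without actinomycin D 3 hpf replicate 4 (adjusted p = 0.0588 by edgeR), SLC25A46 without actinomycin D 4 hpf replicate 1 or 3 hpf replicate 4 (0.0558), and TIMM8B without actinomycin D 4 hpf replicate 2 or 3 hpf replicate 3 (0.0877). The call of timmdc1 was lost without actinomycin D 4 hpf replicate 1, 2 or 3, actinomycin D 3 hpf replicate 1, 3 or 4, oligomycin 4 hpf replicate 3 or oligomycin 3 hpf replicate 1 (adjusted p up to 0.182 by edgeR). That of tomm7 was lost without any 1 of the 4 actinomycin D libraries at 4 hpf, actinomycin D 3 hpf replicate 1, 3 or 4, oligomycin 4 hpf replicate 1, oligomycin 3 hpf replicate 1 or 2, or untreated 3 hpf replicate 4 (adjusted p up to 0.160 by edgeR). In the 2 library series the log2 fold changes were -1.96 and -1.53 for slc25a39 and -1.02 and -1.29 for TIMM21.

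Between actinomycin D and untreated embryos at 4 hpf, 3 carriers were higher and 2 lower, and no import gene was called by edgeR, beside 11.5% of all genes, 4.4% higher and 7.12% lower. The libraries of both groups were apart in 7 carriers, 5 of them higher in actinomycin D, and in no import gene, where 14.2% of all genes were. At an unadjusted p under 0.05 there were 10 carriers and 2 import genes, beside 2292 of the 11238 genes tested. DESeq2 called no import gene. SLC25A42 had 142, 181, 104 and 102 CPM in actinomycin D, against 44.5, 53.3, 46.4 and 64.0 CPM in untreated embryos, with no overlap (log2 fold change 1.34, SE 0.21, adjusted p = 5.36e-05 by edgeR). The glycine carrier SLC25A38 (ENSDARG00000074533) was higher with 0.76 (SE 0.17) and the pyrimidine nucleotide carrier SLC25A36 with 0.68 (SE 0.18). The related slc25a36b was lower, with 41.5, 37.0, 56.6 and 57.9 CPM in actinomycin D and 76.9, 71.5, 73.6 and 78.4 CPM in untreated embryos (log2 fold change -0.63, SE 0.20, adjusted p = 0.0414 by edgeR). The level of slc25a39 was 29.8 ± 10.6 CPM in actinomycin D and 37.8 ± 5.27 CPM in untreated embryos, and that of TIMM21 was 10.3 ± 3.14 CPM in actinomycin D and 5.5 ± 1.89 CPM in untreated embryos (SD, n = 4 each); neither was called. These 4 untreated libraries also enter the comparison with oligomycin.

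With the library set as a block, which pairs these libraries, 8 carriers were called, 6 higher and 2 lower, with slc25a51b (0.60) and the peroxisomal carrier SLC25A17 (0.54) among those added. The share of all genes called in that fit is not given here. TIMM21 was then called higher (0.96, adjusted p = 0.0388 by edgeR). It was also called without untreated 4 hpf replicate 2, oligomycin 4 hpf replicate 2 or 4, replicate 3 of actinomycin D at 4 hpf, actinomycin D 3 hpf replicate 4 or untreated 3 hpf replicate 1 or 4. Without untreated 4 hpf replicate 1 there were 3 carriers, and SLC25A36 lost its call (adjusted p = 0.0665 by edgeR). The call of slc25a36b was lost without actinomycin D 4 hpf replicate 1 or 2 or any 1 of the 4 untreated libraries at 4 hpf (adjusted p up to 0.134 by edgeR). For SLC25A42 the 2 library series gave 1.73 and 0.91.

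At 3 hpf no member was called between actinomycin D and untreated embryos by edgeR, beside 0.427% of all genes, 0.0178% higher and 0.409% lower. An unadjusted p under 0.05 was found for 1 carrier and no import gene, beside 341 of the 11238 genes tested. DESeq2 called 1 carrier, slc25a55a (adjusted p = 0.00848 by DESeq2), which edgeR also called without untreated 3 hpf replicate 3. The share of all genes that DESeq2 called is not given here.

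Set against actinomycin D embryos at 4 hpf, oligomycin embryos had 4 carriers higher, 5 import genes higher and 2 lower by edgeR, beside 11.9% of all genes, 9.79% higher and 2.14% lower. All 4 oligomycin libraries were above all 4 actinomycin D ones in 5 carriers and 3 import genes and below them in 2 import genes, where 17.2% of all genes were apart. The glutathione carrier slc25a39 had 113, 93.4, 105 and 73.9 CPM in oligomycin, against 20.1, 21.4, 40.5 and 37.2 CPM in actinomycin D, 3.17-fold higher with no overlap (log2 fold change 1.66, SE 0.20, adjusted p = 2.02e-05 by edgeR). For slc25a36b the levels were 95.8, 81.6, 76.5 and 98.5 CPM in oligomycin and 41.5, 37.0, 56.6 and 57.9 CPM in actinomycin D, also apart (log2 fold change 0.86, SE 0.20). SLC25A46 was higher with 0.44 (SE 0.14), and slc25a55a is described below. Among import genes, tomm20a, TIMM8B, TIMM21, timmdc1 and tomm7 were higher in oligomycin with 0.56, 0.97, 1.08, 0.58 and 0.57. TOMM40 was lower with -0.36, at 129.8 ± 10.9 CPM in oligomycin and 167 ± 9.48 CPM in actinomycin D (SD, n = 4 each). TOMM70, a receptor for carriers and other hydrophobic proteins, was lower with -0.34, at 119.8 ± 8.96 CPM in oligomycin and 152 ± 16.8 CPM in actinomycin D. These libraries are the same as in the comparisons with untreated embryos at 4 hpf. SLC25A42 had -0.30 (SE 0.20) and was not called.

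The set pairs these libraries too, and as a block it gave 7 carriers, 6 higher and 1 lower, with SLC25A25 (0.36) and SLC25A15 (ENSDARG00000063539; 0.95) added as higher and SLC25A17 (-0.51) as lower. For this block fit, too, the share of all genes called is not given here. Without single libraries 3 to 7 import genes were called, 4 without replicate 1 or 2 of oligomycin or replicate 3 of actinomycin D at 4 hpf, and 3 without replicate 3 of oligomycin or replicate 1 or 2 of actinomycin D at that time. SLC25A46 lost its call without replicate 1 or 3 of oligomycin or 1, 2 or 4 of actinomycin D at 4 hpf, and timmdc1 without replicate 1 or 3 of oligomycin or 1, 2 or 3 of actinomycin D at 4 hpf (adjusted p up to 0.115 and 0.130 by edgeR). For TOMM40 these were oligomycin 4 hpf replicates 2 and 3, actinomycin D 4 hpf replicates 1 and 2, untreated 4 hpf replicates 1 and 2 and untreated 3 hpf replicate 2 (adjusted p up to 0.161 by edgeR). TOMM70 kept its call only without actinomycin D 4 hpf replicate 4, untreated 4 hpf replicate 3 or 4, oligomycin 3 hpf replicate 1 or 4, or actinomycin D 3 hpf replicate 1 or 4, and lost it in the other 17 fits (adjusted p up to 0.252 by edgeR). The call of tomm7 was lost without oligomycin 4 hpf replicate 1, 2 or 3, any 1 of the 4 actinomycin D libraries at 4 hpf, actinomycin D 3 hpf replicate 1, untreated 4 hpf replicate 4, untreated 3 hpf replicate 4 or oligomycin 3 hpf replicate 1 or 2 (adjusted p up to 0.154 by edgeR).

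The carrier slc25a55a, for which the RefSeq gene table of assembly GRCz12tu gives slc25a22 as an older name, is given on its own because its counts in some groups were near 0. At 4 hpf it had 18.9, 44.6, 31.4 and 80.5 CPM in oligomycin, 0, 0.521, 0.619 and 5.26 CPM in actinomycin D and 159, 190, 116 and 99.3 CPM in untreated embryos. At 3 hpf the levels were 1.64, 7.26, 1.93 and 3.82 CPM in oligomycin, 1.50, 1.71, 0.350 and 0.321 CPM in actinomycin D and 16.4, 38.4, 0.360 and 5.29 CPM in untreated embryos. Every untreated library at 4 hpf lay above every oligomycin library, and every oligomycin library above every actinomycin D library, at that time. In untreated embryos the rise at 4 against 3 hpf came to 3.25 on the log2 scale (SE 0.66, adjusted p = 0.00112 by edgeR), with 2.67 and 5.13 in the first and second library series. In oligomycin embryos the corresponding value was 3.55 (SE 0.79, adjusted p = 0.0489 by edgeR).

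At 4 hpf slc25a55a was lower in actinomycin D than in untreated embryos (-6.29, SE 0.87, adjusted p = 2.92e-05 by edgeR) and higher with oligomycin than with actinomycin D (4.62, SE 0.89, adjusted p = 0.00215 by edgeR). Against untreated embryos the oligomycin value was -1.67 (SE 0.60), which was not called (adjusted p = 0.0528 by edgeR). In actinomycin D at 4 hpf the gene held 0, 1, 2 and 15 counts, so the size of these folds depends on few reads; leaving out single libraries moved the value against untreated embryos between -8.26 and -5.94. The library with 15 counts was replicate 4, in which the 6 early zygotic markers summed to 27.7 CPM, against 0.928 to 1.04 CPM in the other 3. In untreated embryos at 3 hpf, the zygotic markers summed to 361, 401, 132 and 213 CPM in replicates 1 to 4, where slc25a55a had 16.4, 38.4, 0.360 and 5.29 CPM. In oligomycin embryos at 4 hpf the markers summed to 294, 599, 467 and 705 CPM, where slc25a55a had 18.9, 44.6, 31.4 and 80.5 CPM. The part of zygotic marker levels in these values was not tested. The call in oligomycin embryos was lost when any 1 of 19 of the 24 libraries was left out, that is in all but untreated 3 hpf replicates 2, 3 and 4, oligomycin 4 hpf replicate 1 and actinomycin D 4 hpf replicate 4 (adjusted p up to 0.330 by edgeR).

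Whether the effect of oligomycin differed between 4 and 3 hpf was tested as an interaction. No member was called by edgeR, beside 1.02% of all genes. At an unadjusted p under 0.05 there were 7 of the 34 carriers and 5 of the 22 import genes, beside 1791 of the 11238 genes tested. The values with the smallest p were 1.54 (SE 0.40, adjusted p = 0.0561 by edgeR) for TIMM21 and 1.01 (SE 0.27, adjusted p = 0.0654 by edgeR) for slc25a39, as differences of log2 fold changes. DESeq2 called 3 carriers, slc25a39, SLC25A25 and SLC25A46, and 1 import gene, TIMM21 (adjusted p = 0.0159, 0.0284, 0.0449 and 0.0145 by DESeq2). The share of all genes that DESeq2 called is not given here, and the 1.02% is that of edgeR. Without single libraries edgeR called 0 to 2 carriers: 2 without oligomycin 4 hpf replicate 4, untreated 4 hpf replicate 3 or untreated 3 hpf replicate 2, and 1 without actinomycin D 4 hpf replicate 1 or 2, untreated 4 hpf replicate 4 or oligomycin 3 hpf replicate 3. It called 1 import gene, TIMM21, without untreated 4 hpf replicate 3, untreated 3 hpf replicate 1, replicate 4 of oligomycin at 4 hpf, or replicate 1 or 2 of actinomycin D at 4 hpf. With the library set as a block edgeR called members of both kinds, although the sets did not meet the rule for pairing here.

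Other genes of the pathways were read from lists of names. Of 22 tested genes that act in import but carry other names, 6 had fallen and none had risen at 4 against 3 hpf in untreated embryos, beside the 14.6% of all genes called lower. They were the intermembrane-space oxidoreductase CHCHD4 (-0.91) and its copy chchd4b (-0.91), its partners GFER (-0.59) and AIFM1 (-0.48), the inner-membrane peptidase subunit IMMP1L (-2.01) and the import motor subunit PAM16 (-1.45), all as log2 fold changes. At 4 hpf 4 of the 22 were higher in oligomycin than in untreated embryos: CHCHD4 (0.85), IMMP1L (2.34), GFER (0.55) and PAM16 (1.28), beside 12.3% of all genes called higher. CHCHD4 was also higher in actinomycin D than in untreated embryos (0.95, SE 0.13), and it was called in the interaction (0.78, SE 0.19, adjusted p = 0.0404 by edgeR). In actinomycin D embryos IMMP1L (-1.73) and GFER (-0.50) were lower at 4 than at 3 hpf, and at 4 hpf both were higher with oligomycin than with actinomycin D (1.84 and 0.55).

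Of 21 tested genes for other transport across mitochondrial membranes, UCP2 (0.68), an uncoupling protein of the carrier fold, and LETM1 (0.76), an inner-membrane cation exchanger, were higher at 4 than at 3 hpf in untreated embryos and none was lower, beside 12.8% of all genes higher and 14.6% lower. The sideroflexin sfxn4 was higher in oligomycin than in untreated embryos at 4 hpf (1.11, SE 0.34, adjusted p = 0.0219 by edgeR). No other gene of this list was called in any of the 10 comparisons.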

How the data were processed

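RNA of whole zebrafish embryos was measured in 24 libraries, 4 for each of 6 groups, as QuantSeq 3′ counts. The deposited values are raw counts per gene, which the authors made with Bowtie2 2.3.4.1 and featureCounts of Subread 1.6.2 on GRCz11, per the submitters' processing notes; their settings, strand rule and annotation release are not given in the sources used here. Of 32520 identifiers 29201 matched a symbol. Genes were kept by edgeR's filterByExpr and scaled by TMM. One quasi-likelihood model (edgeR 4.0.16, limma 3.58.1, R 4.3.3) with a mean per group was fitted to 11238 genes and 24 libraries, and p-values were adjusted by Benjamini-Hochberg over all of them; the SE is the size of the log2 fold change over the root of F. The fit was tested on simulated data. Total counts of 1453642 to 3431533 per library set the precision. TMM factors lay between 0.929 and 1.08. Replicate libraries differed beyond sampling noise (chi-square per gene of at least 3.73).

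Library numbers in the titles give 2 series and 4 sets. A set was taken to pair libraries where the deviations from group means of every same-set pair correlated above 0.1 (lowest r 0.193 to 0.335). This held for all comparisons except oligomycin against untreated at 3 and at 4 hpf, oligomycin at 4 against untreated at 3 hpf, and the interaction. For these comparisons of oligomycin with untreated embryos 3 of 4 pairs were above 0.1 (lowest r 0, 0.076 and -0.029, in that order). In the interaction 21 of 24 pairs were, with a median r of 0.385. Alternatives were DESeq2 1.42.0, other scalings and filters, the set as a block, each series alone, and each library left out. Shares of all genes called are given for the main fit alone, so counts of members under the alternatives stand without that background.

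The members and gene lists were chosen with earlier results of these data known. The genes named are the 10 most abundant of each kind, those called with the smallest p in each comparison, and the core translocase, ADP/ATP and phosphate carrier genes. SLC25A15, SLC25A17, slc25a23a, SLC25A37 and tomm6 were named outside that rule after their values were seen. Counts cover all members, but 1 carrier is not reported here by name or in the figures.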

Additional observations from a re-analysis of the deposited data

Results flagged for a closer look

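The screen covered 36 of the 56 members, those chosen to be named by level, smallest p or core role, and the sums of carriers and of import genes. Within each group of 4 libraries it looked for 1 library standing apart from the other 3. The remaining members were not screened. By chance about 5% of such groups would be listed, and 10 of 228 were.

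In 2 carriers the oligomycin library at 4 hpf numbered replicate 4 here was the low one. SLC25A25 had 826.8 CPM there, with 1018 CPM in the nearest library, and the iron carrier SLC25A28 had 74.45 CPM, with 84.61 CPM in the nearest. For SLC25A25 all 4 untreated libraries at 4 hpf were lower still. The pyrimidine nucleotide carrier SLC25A36 had 34.04 CPM in actinomycin D 4 hpf replicate 4, with 41.16 CPM in the nearest library of its group.

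At 3 hpf both TOMM20 copies were high in actinomycin D replicate 3, with 203.2 CPM for TOMM20 and 153.6 CPM for tomm20a, where the nearest libraries had 156.6 and 128.2 CPM. In replicate 4 of the same group TIMM50 had 64.74 CPM, with 50.85 CPM in the nearest. The oligomycin libraries at 3 hpf held 3 such values: slc25a39 at 117.8 CPM and TIMM10 at 230.6 CPM in replicate 1, with 108.6 and 264 CPM in the nearest, and TIMM13 at 72.59 CPM in replicate 3, with 35.43 CPM in the nearest. The receptor TOMM22 had 61.9 CPM in untreated 3 hpf replicate 3, with 52.96 CPM in the nearest library.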

How the results depend on the processing

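No value of a named gene that was called in the main or the alternative fit reversed its direction between them. Values called in neither fit were not checked for direction. No scaling moved the median of all genes by more than 0.1 on the log2 scale. DESeq2's size factors used in edgeR moved none of the 20 counts of called members by more than 1.5 times. DESeq2 gave 5 carriers for actinomycin D at 4 against 3 hpf, 1 for actinomycin D against untreated at 3 hpf, and 3 carriers and 1 import gene in the interaction. Total counts as the scaling, and likewise testing every gene with a count, gave 0 carriers for oligomycin at 4 against 3 hpf, 1 import gene for actinomycin D against untreated at 4 hpf, and 1 carrier and 1 import gene in the interaction. With every gene tested, 3 import genes were called for actinomycin D at 4 against 3 hpf. A minimum of 10 counts in every library gave 0 carriers for oligomycin at 4 against 3 hpf and 1 carrier in the interaction. It gave 4 import genes for oligomycin against actinomycin D at 4 hpf. This filter removed slc25a55a, with 0 counts in actinomycin D 4 hpf replicate 1, and TIMM21, with 9 in untreated 4 hpf replicate 1. Both went untested there, so these counts do not show whether their calls hold under it.

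The library set as a replicate block changed 6 of the 20 counts, to 5 carriers for actinomycin D at 4 against 3 hpf, 8 carriers and 1 import gene for actinomycin D against untreated at 4 hpf, 7 carriers for oligomycin against actinomycin D at 4 hpf, and 4 carriers and 3 import genes in the interaction. There the rule for pairing was not met, though 21 of 24 same-set pairs correlated above 0.1. The block ended no call of a named gene.

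Each library series alone leaves 2 libraries per group. The first series gave 2 import genes for untreated embryos at 4 against 3 hpf, 0 carriers for oligomycin at 4 against 3 hpf, 1 carrier and 0 import genes for actinomycin D at 4 against 3 hpf, 1 import gene for actinomycin D against untreated at 4 hpf, and 3 import genes for oligomycin against actinomycin D. The second gave 6 carriers and 5 import genes for untreated embryos with time, 0 carriers for oligomycin with time, 1 import gene for actinomycin D with time, 1 carrier and 0 import genes for oligomycin against untreated, 1 carrier for actinomycin D against untreated, and 2 carriers and 0 import genes for oligomycin against actinomycin D, the last 3 at 4 hpf. The smaller number of libraries is part of this alternative.

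Leaving out each library in turn gave these ranges of called members. Untreated embryos with time had 10 to 13 carriers and 5 to 10 import genes, oligomycin embryos 0 to 1 carriers, and actinomycin D embryos 2 to 5 carriers and 2 to 6 import genes. At 4 hpf oligomycin against untreated had 5 to 11 carriers and 4 to 7 import genes, actinomycin D against untreated 3 to 5 and 0 to 1, and oligomycin against actinomycin D 3 to 5 and 3 to 7. The range was 0 to 1 carriers for actinomycin D against untreated at 3 hpf, and 0 to 2 carriers and 0 to 1 import genes in the interaction. Members near the minimum, slc25a55a in actinomycin D and TIMM21 in untreated embryos at 4 hpf rest on few counts. At this depth differences of the size seen in TOMM40 or SLC25A5 are at the edge of what is called.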

Other observations

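For 2 of the 56 members, 1 library set stood wholly apart from the other 3 in all 6 groups, which 308 of the 11238 genes tested (2.74%) did too. The small TOM subunit tomm6 had 20.89 to 29.72 CPM in the 6 libraries of set 4, against 45.17 to 53.98 CPM in set 1, 67.21 to 92.88 CPM in set 2 and 39.3 to 73.87 CPM in set 3. The peroxisomal carrier SLC25A17 had 25.08 to 49.51 CPM in the 6 libraries of set 2, against 9.357 to 23.51 CPM in the other 18. What a set stands for is not given in the labels.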
